A study of Rattus norvegicus with 16 samples.

Results

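The genes described here mark B lymphocytes and antibody-secreting plasma cells, together with the receptor that carries their IgA across the gut epithelium. They were listed as 9 genes, Ms4a1, Cd79a, Cd79b, Cr2, Jchain, Mzb1, Pou2af1, Tnfrsf17 and Pigr, and were found on the array by matching the accession of each probe to a RefSeq gene. A probe was matched for 6 of the 9 genes, and Ms4a1, Cd79a and Jchain are therefore not analysed here. The 6 genes had 8 probes among the 30367 on the array, where 15159 genes were matched in all. Of the 8 probes, 2 were well above background on all 16 arrays (1 probe of Pou2af1 and the probe of Pigr), 7 were so on at least 4 arrays, and the probe of Cr2 was so on none.

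Normal distal colon of 16 male (ACIxF344)F1 rats was hybridised to single-colour arrays, 1 array per rat and 4 rats in each of 4 groups. The groups were wild type rats left untreated, wild type rats given dextran sodium sulfate (DSS), rats heterozygous for Pirc (Pirc/+) left untreated, and Pirc/+ rats given DSS. Pirc is a mutant allele of Apc, a tumour suppressor gene, and DSS is a polymer that inflames the colon when it is drunk. DSS was given at 4% in the drinking water from day 40 to day 47 and again from day 54 to day 61 of age. All rats were killed at 97 days, 36 days after the last DSS, so the comparisons ask which transcripts still differed after that interval, and whether the Pirc allele altered the difference.

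B cells recognise antigen with a surface immunoglobulin that signals through the paired chains Cd79a and Cd79b, and follicular B cells carry the complement receptor Cr2. After activation a B cell can become a plasma cell, which enlarges its secretory apparatus, links IgA molecules with the joining chain Jchain and depends on survival signals such as those received through Tnfrsf17 (BCMA). In the colon, IgA from plasma cells of the lamina propria is bound by Pigr on the base of epithelial cells and released into the lumen.

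The share of spots well above background ran from 71.11% to 80.32% over the arrays, and saturation was not seen. The arrays lay on 2 slides, each with 2 rats of every group, whereas each group occupied 1 column of positions on the slides, so that array column and group cannot be told apart. The nearest array by correlation came from the same group for 14 of the 16 rats. Summed markers of colon epithelium lay between 9.02 and 9.65 in all rats, on a log2 scale relative to the array's 75th percentile of signal, the scale used throughout. Markers of some other cells differed after DSS over both genotypes, a comparison in which 10.2% of all probes rose and 6.99% fell. Of 5 measured markers of stratified epithelium, the kind that lines skin and the anal canal, all 5 rose after DSS over both genotypes, and their sum lay between -2.53 and -0.35 in the 8 untreated rats, between -2.52 and 5.03 in the DSS-treated wild type rats and between 3.86 and 6.37 in the DSS-treated Pirc rats. Of 7 macrophage markers 5 rose after DSS, with sums of 1.18 to 1.81 (wild type untreated), 2.06 to 3.3 (wild type DSS), 1.97 to 2.29 (Pirc untreated) and 2.63 to 3.15 (Pirc DSS). Of 8 T cell markers only Cd2 passed upwards, with a signal well above background on 2 of the 16 arrays, and the 4 groups, in the same order, had sums of -0.43 to 0.03, -0.25 to 0.44, -0.15 to 0.16 and 0.21 to 0.5. Of 6 smooth muscle markers 1 rose (Tagln) and 1 fell (Des), and these 2 calls became 1 in 13 of the 16 fits with 1 rat left out. Of 9 measured colon epithelium markers none passed after DSS. Among DSS-treated rats 4 of those 9 were lower in Pirc than in wild type rats. The part of these cells in the results below was not tested.

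Transcripts of 4 of the 6 measured genes were enhanced after DSS. Over both genotypes Cd79b, Mzb1, Pou2af1 and Tnfrsf17 rose (limma, adjusted p of 0.05 or less over all probes), Cr2 and Pigr did not pass, and the median log2 difference of the 6 was 1.38. Among all probes 17.2% passed in this comparison, 10.2% upwards and 6.99% downwards, and the median of all probes was 0.06. The same 4 genes rose in the Pirc rats alone, where the median of the 6 was 1.87 against 0.04 for all probes, and 14.7% of all probes passed (8.14% upwards and 6.51% downwards). In wild type rats alone none of the 6 passed (0, with 1 of them, Pou2af1, at an unadjusted p under 0.05), their median was 0.86 against 0.09, and 3.84% of all probes passed (2.94% upwards and 0.899% downwards). The direct test of whether DSS acted differently in the 2 genotypes called none of the 6 (0), although their median difference between the DSS effects was 0.97, and it called 13 probes of the whole array (0.0428%). In these bulk samples, more cells of a type and more transcript per cell cannot be told apart.

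**Figure D1:**
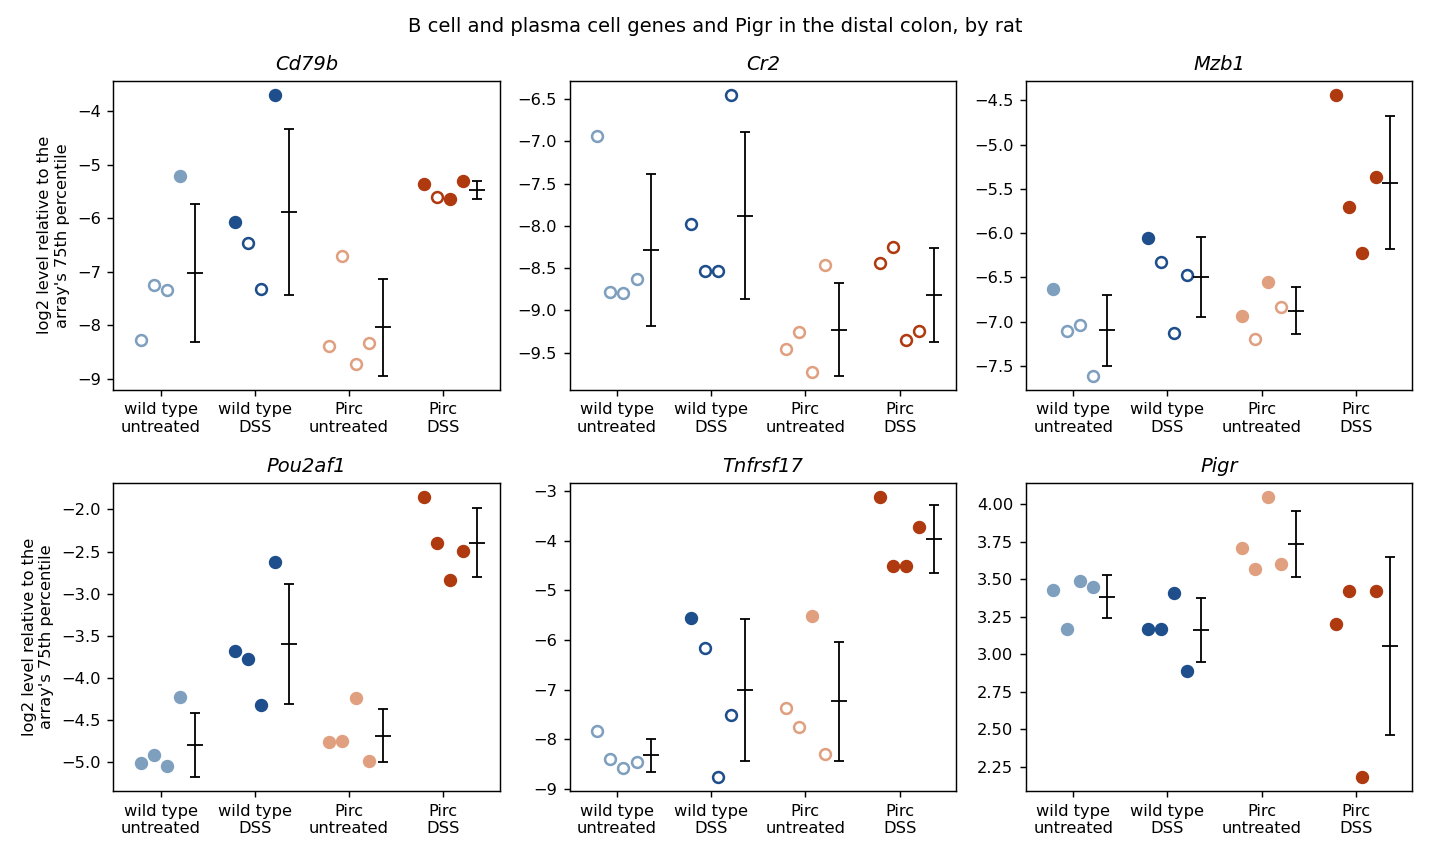
Log2 level relative to the array's 75th percentile (vertical axis, a separate scale for each gene) of the 6 measured genes in the 4 groups. Each point is 1 rat, filled where the probe was well above background, and the black bars give the group mean and SD (n = 4). The 4 DSS-treated Pirc rats lie above all untreated Pirc rats for Cd79b, Mzb1, Pou2af1 and Tnfrsf17 and below them for Pigr.

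Cd79b, the signalling chain of the B cell receptor, had log2 levels of -8.38, -6.7, -8.72 and -8.34 in the untreated Pirc rats and of -5.36, -5.61, -5.64 and -5.3 in the Pirc rats given DSS. The 2 groups did not overlap, and the DSS-treated Pirc rats were the most alike of any group (SD 0.17, against 0.9 without DSS). The signal was well above background in 0 of 4 untreated Pirc rats and in 3 of 4 treated ones, so the rise is a bound of at least 2.89-fold (fitted log2 difference 2.56 ± 0.72 (SE), adjusted p = 0.0277). The call was lost without rat 11, 12, 19, 20 or 23 (adjusted p of 0.0522 to 0.0792). The bound sets the mean of the DSS-treated rats against the lowest level at which any probe was well above background on each array of the dim group. With levels below -6.22 raised to 1 floor common to all arrays, the difference was 0.74 on the log2 scale and did not pass (adjusted p = 0.395).

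Wild type rats had levels of the same transcript of -8.28, -7.25, -7.34 and -5.21 without DSS and of -6.08, -6.46, -7.32 and -3.7 with it. Here the groups overlapped, and rat 25 without DSS stood high at -5.21, as did rat 26 with DSS at -3.7. The difference of 1.13 ± 0.72 (SE) did not pass (adjusted p = 0.492). Those 2 rats also had the highest summed level of 6 smooth muscle markers, 2.8 in rat 25 and 3.53 in rat 26, where the other 14 rats lay between -0.59 and 1.91. Over both genotypes Cd79b rose by 1.84 ± 0.51 (SE, adjusted p = 0.0204), and without rats 25 and 26 the difference was 1.78 (adjusted p = 0.00198).

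**Figure D2:**
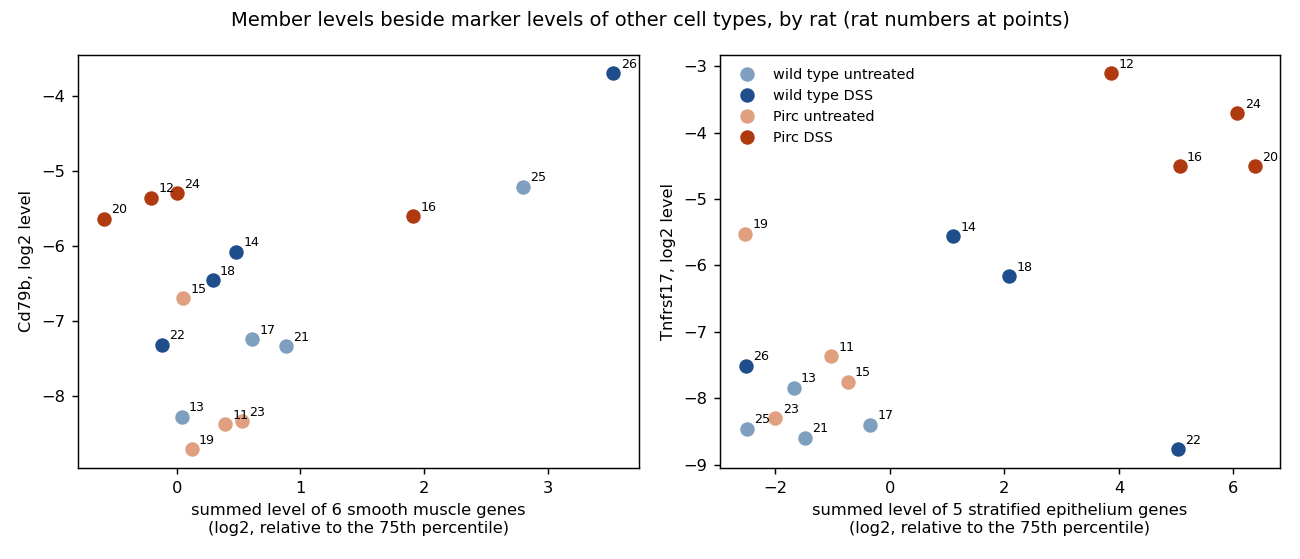
Left, the log2 level of Cd79b against the summed log2 level of 6 smooth muscle markers, and right, that of Tnfrsf17 against the sum of 5 stratified epithelium markers, both relative to the array's 75th percentile, with 1 point per rat and its number. Rats 25 and 26 lie far to the right for smooth muscle, at 2.8 and 3.53, and rat 22 has a high stratified epithelium sum of 5.03 beside a Tnfrsf17 level of -8.77.

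Cr2, the complement receptor of follicular B cells and follicular dendritic cells, was not well above background in any rat. Its levels ran from -8.79 to -6.94 in untreated wild type rats, from -8.54 to -6.45 in DSS-treated wild type rats, from -9.73 to -8.46 in untreated Pirc rats and from -9.35 to -8.25 in DSS-treated Pirc rats. All 4 ranges overlapped, and no fold is given for a transcript without signal on either side. None of the 7 comparisons passed for Cr2, and the lowest adjusted p was 0.0838, for Pirc rats against wild type rats over both treatments (log2 difference -0.94).

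Tnfrsf17, the receptor through which plasma cells receive the survival factors BAFF and APRIL, had levels of -7.37, -7.75, -5.52 and -8.3 in the untreated Pirc rats and of -3.11, -4.51, -4.51 and -3.71 in the Pirc rats given DSS. Every DSS-treated Pirc rat was above every other rat of the study, and in this group alone the probe was well above background on all 4 arrays. The rise in Pirc rats was 3.28 ± 0.65 (SE) on the log2 scale (adjusted p = 0.00391), with a signal well above background on 1 of 4 untreated Pirc arrays. Its size depended on the handling of dim signal: it was 2.08 with the common floor and 1.2 with normexp background correction, and passed in both.

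The wild type levels of Tnfrsf17 were -7.84, -8.4, -8.59 and -8.46 without DSS and -5.56, -6.16, -8.77 and -7.51 with it. Of the DSS-treated wild type rats, rats 14, 18 and 26 lay above all untreated wild type rats and rat 22 lay below them. Rat 22 had a stratified epithelium sum of 5.03, the highest among the wild type rats. The difference in wild type rats was 1.32 ± 0.65 (SE, adjusted p = 0.336), with a signal well above background in rat 14 alone.

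Mzb1 encodes a chaperone of the endoplasmic reticulum that helps B and plasma cells to assemble and secrete antibody. It read -6.94, -7.19, -6.55 and -6.83 in the untreated Pirc rats and -4.44, -5.7, -6.22 and -5.36 in the Pirc rats given DSS, without overlap. The rise was 2.72-fold (log2 difference 1.45 ± 0.33 (SE), adjusted p = 0.00921), with 2 of 4 untreated and 4 of 4 treated arrays well above background.

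The wild type rats had Mzb1 levels of -6.63, -7.11, -7.04 and -7.61 without DSS and of -6.06, -6.33, -7.13 and -6.47 with it. Rat 22 again stood lowest of the DSS-treated wild type rats, and the groups overlapped through it. The difference was 0.6 ± 0.33 (SE, adjusted p = 0.41), and over both genotypes it was 1.02 ± 0.23 (SE, adjusted p = 0.00726).

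Pou2af1 encodes a coactivator that joins octamer-binding factors at immunoglobulin promoters and is needed for germinal centres. Its brightest probe, well above background in every rat, read -4.76, -4.75, -4.24 and -4.99 in the untreated Pirc rats and -1.85, -2.4, -2.84 and -2.49 in the Pirc rats given DSS. These groups did not overlap, and the rise was 4.9-fold (log2 difference 2.29 ± 0.32 (SE), adjusted p = 0.000377).

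The same probe in wild type rats read -5.01, -4.91, -5.04 and -4.23 without DSS and -3.68, -3.78, -4.32 and -2.62 with it. Only rat 25, the highest untreated rat, and rat 22, the lowest treated rat, overlapped. The difference of 1.2 ± 0.32 (SE) did not pass (adjusted p = 0.0516), and without rat 25 it was 1.39 (adjusted p = 0.0447), without rat 22 1.44 (adjusted p = 0.0199). The other 2 probes of Pou2af1, both dimmer, also rose over both genotypes, by 1.05 and 0.88, and in the Pirc rats, by 1.07 and 1.36.

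**Figure D3:**
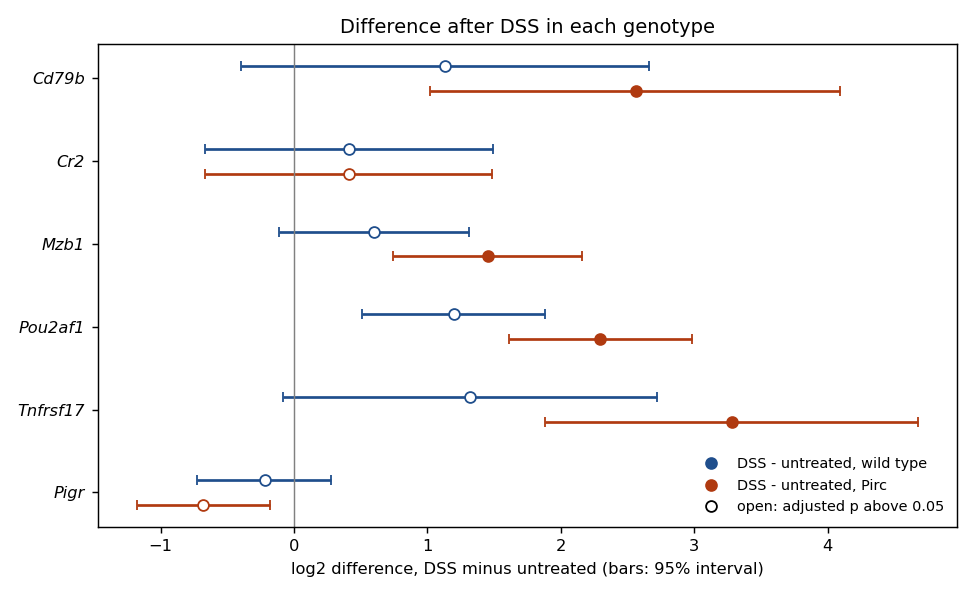
Log2 difference, DSS minus untreated, of the 6 genes in wild type rats (blue) and Pirc rats (red), with 4 rats per group. Bars are 95% intervals of the limma fit and filled points have an adjusted p of 0.05 or less. For Cd79b, Mzb1, Pou2af1 and Tnfrsf17 the point for Pirc rats lies to the right of that for wild type rats, but the 2 intervals overlap for every gene.

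The Pirc allele alone was accompanied by no passing difference. Among untreated rats none of the 6 genes passed (0), the median of the 6 was 0.17, and none of the 30367 probes passed either (0%, with 3103 probes at an unadjusted p under 0.05). Among DSS-treated rats, Mzb1, Pou2af1 and Tnfrsf17 were higher in Pirc than in wild type rats, in a comparison that 18.2% of all probes passed (9.47% upwards and 8.76% downwards). Tnfrsf17 was higher without overlap by 3.04 ± 0.65 (SE) on the log2 scale (adjusted p = 0.00696), with 1 of 4 wild type arrays well above background, and by 0.82 with normexp. Pou2af1 was 2.31-fold higher (1.21 ± 0.32 (SE), adjusted p = 0.0185) and Mzb1 was higher by 1.07 ± 0.33 on the log2 scale (SE, adjusted p = 0.0378), with 1 of 4 wild type arrays well above background, both with overlap. The other 2 probes of Pou2af1 did not pass there, with differences of 0.59 (adjusted p = 0.164) and 0.47 (adjusted p = 0.429). Cd79b differed by 0.41 ± 0.72 (SE, adjusted p = 0.725).

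Calls between the DSS-treated genotypes changed with single rats. Without rat 12, the highest of the DSS-treated Pirc rats for Mzb1 and Pou2af1, the difference between DSS-treated Pirc and wild type rats was 0.74 for Mzb1 (adjusted p = 0.11) and 1.02 for Pou2af1 (adjusted p = 0.0614). Without rat 22 it was 0.86 for Mzb1 (adjusted p = 0.113) and 0.96 for Pou2af1 (adjusted p = 0.0574). Mzb1 also missed the threshold without rat 17, 18, 24 or 26, at differences of 1.04 to 1.12. Over both treatments Tnfrsf17 was the only 1 of the 6 genes that passed between the genotypes (2.07 ± 0.46 (SE), adjusted p = 0.00836), in a comparison that 17.5% of all probes passed (9.26% upwards and 8.27% downwards). The comparisons of DSS in Pirc rats and of Pirc in DSS-treated rats share the same 4 DSS-treated Pirc rats.

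Because a call in one genotype and none in the other does not show that the genotypes differ, the difference between the DSS effects was tested directly. It was 1.96 ± 0.93 (SE, adjusted p = 0.475) for Tnfrsf17, 1.09 ± 0.45 (SE, adjusted p = 0.414) for Pou2af1, 1.43 ± 1.02 (SE, adjusted p = 0.646) for Cd79b and 0.85 ± 0.47 (SE, adjusted p = 0.544) for Mzb1. For the other 2 probes of Pou2af1 it was 0.04 (adjusted p = 0.978) and 0.98 (adjusted p = 0.537). The 95% interval ran from -0.02 for Tnfrsf17 and from 0.13 for the brightest probe of Pou2af1, before any adjustment over all probes.

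Pigr, the epithelial receptor that takes up polymeric IgA, moved the other way without passing. It read 3.71, 3.57, 4.05 and 3.6 in the untreated Pirc rats and 3.2, 3.42, 2.18 and 3.42 in the Pirc rats given DSS. All 4 treated rats lay below the untreated ones, and rat 20 at 2.18 lay well below the other 3. The difference was -0.68 ± 0.24 (SE) with an adjusted p of 0.0688, and the adjusted p was 0.0394 after quantile normalization, 0.0474 when dim probes were left out, 0.0468 without rat 16 and 0.0401 without rat 24. With each rat left out in turn, the difference ran from -0.8 to -0.39, smallest in size without rat 20. The adjusted p then ran from 0.0401 to 0.18.

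In wild type rats Pigr read 3.43, 3.17, 3.49 and 3.45 without DSS and 3.17, 3.17, 3.41 and 2.89 with it. The difference of -0.22 ± 0.24 (SE) did not pass (adjusted p = 0.735), nor did the difference between the DSS effects, at -0.45 (adjusted p = 0.66). Among untreated rats Pigr lay higher in every Pirc rat than in any wild type rat, by 0.35 on average, which did not pass either (adjusted p = 0.65). The 5 genes whose profile over the 16 rats was most like that of Pigr were Zfp512b, Trit1, Tmod4, Tmem14a and Hoxa7, at mean absolute log2 differences of 0.15 to 0.17 from its centred profile among 11707 probes that were well above background on all arrays, where Pigr itself deviated from its own mean by 0.28.

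The listed heavy and light chain genes of antibody had no matched probe, and only a light chain-like gene was measured. Of 12 immunoglobulin chain genes listed, 11 had no matched probe, and the remaining one was Igll1, which encodes a light chain-like protein related to the lambda constant regions. The files hold no probe sequences, so whether this probe also binds lambda light chain transcripts was not tested. Igll1 read -6.65, -6.49, -5.51 and -6.76 in the untreated Pirc rats and -3.19, -3.32, -3.41 and -3.6 in those given DSS.

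The DSS-treated Pirc rats formed a tight group above all other rats for Igll1, and the rise in Pirc rats was 7.86-fold (log2 difference 2.98 ± 0.28 (SE), adjusted p = 6.03e-05). Wild type rats read -6.87, -6.87, -7.07 and -6.51 without DSS and -5.66, -5.89, -6.67 and -5.48 with it, a difference of 0.9 ± 0.28 (SE, adjusted p = 0.0936). Among DSS-treated rats Igll1 was 5.84-fold higher in Pirc rats (adjusted p = 0.000254), and the difference between the DSS effects was 2.07 ± 0.4 (SE, adjusted p = 0.104). That difference passed with normexp, with the common floor and without rat 19 of the untreated Pirc rats, and in no other setting run.

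**Figure D4:**
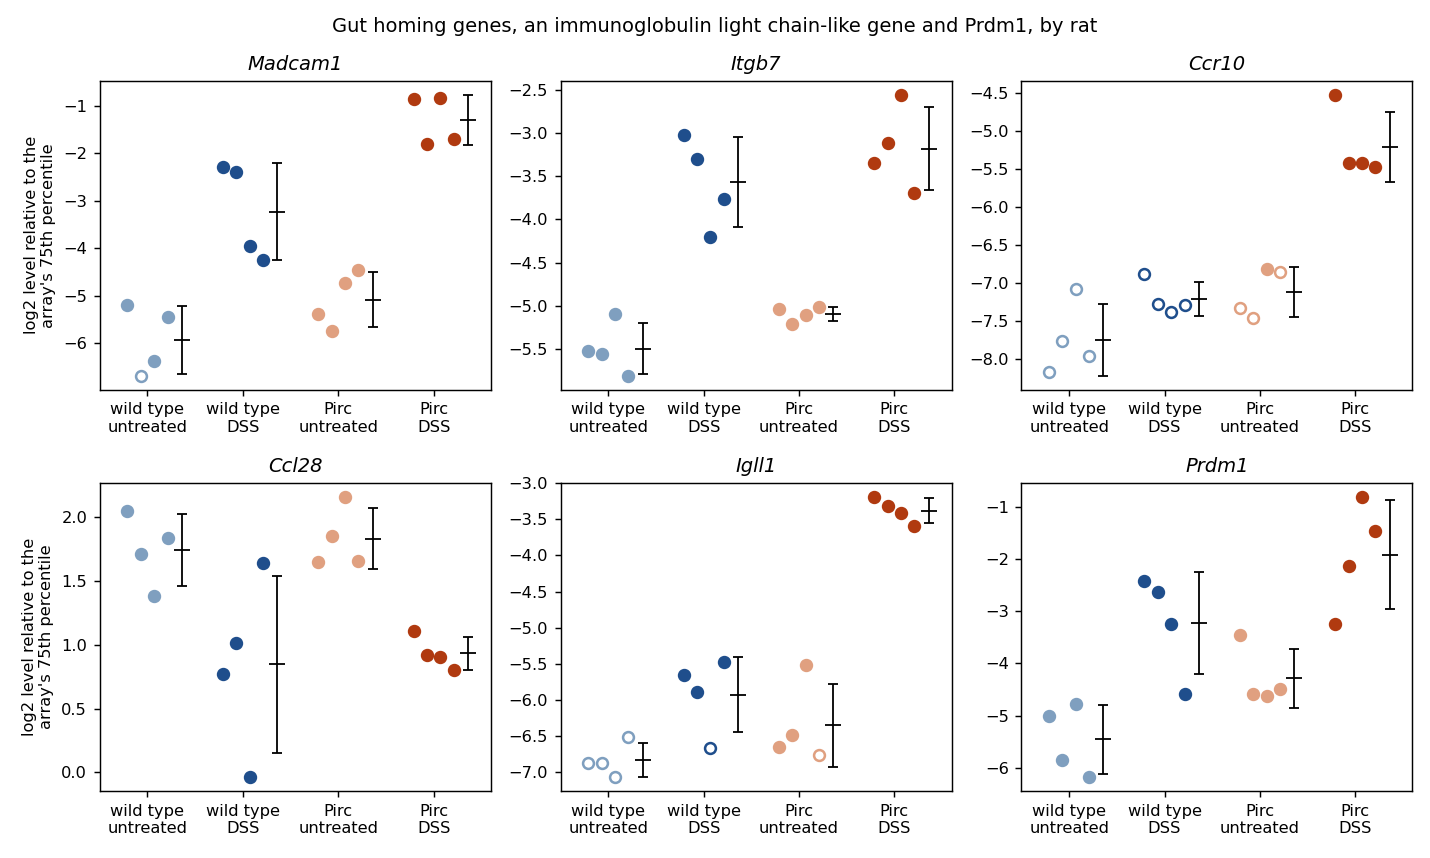
Log2 level relative to the array's 75th percentile (separate scale for each gene) of Madcam1, Itgb7, Ccr10, Ccl28, Igll1 and Prdm1 in the 4 groups, drawn as in the plot of the 6 genes by rat (filled points well above background, bars mean and SD, n = 4). Igll1 and Ccr10 are higher in every DSS-treated Pirc rat than in any other rat, Itgb7 rises by 1.93 in wild type and 1.92 in Pirc rats, and Ccl28 falls.

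Other genes of the B lineage were taken from lists chosen with earlier results of these data known. Of 17 genes of B cell identity and receptor signalling, all measured, 5 rose and none fell after DSS over both genotypes, where 10.2% of all probes rose and 6.99% fell, and the median of 0.4 over the 17 compares with 0.06 for all probes. Fcer2 (CD23, the low-affinity IgE receptor of B cells) rose by 2.03 ± 0.3 (SE) and Bach2 by 0.9. The kinase Btk, Bank1 and Blk also passed upwards, but they were well above background on 1, 1 and 0 of the 16 arrays, so no size is given. The other 12 did not pass. Without rats 25 and 26, 3 instead of 5 passed. In Pirc rats 3 genes of this list rose after DSS, Btk, Fcer2 and Bach2, and 2 fell, which were Spib (-1.06) and Plcg2 (-0.39). Among all probes 8.14% rose and 6.51% fell in Pirc rats. In wild type rats Btk, Fcer2 and Bach2 passed upwards as well, where 2.94% of all probes rose and 0.899% fell. Btk had no signal well above background on any wild type array.

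Blnk, Spib and Plcg2 were lower in Pirc rats over both treatments, by -0.82, -0.76 and -0.29, and none of the 17 was higher. These 3 of 17 stand beside the 17.5% of all probes that passed in this comparison, 9.26% upwards and 8.27% downwards. Blnk, an adaptor of the B cell receptor, read 1.01, 0.52, 0.98 and 0.56 in the DSS-treated wild type rats and -1.3, -0.12, -0.84 and 0.05 in the DSS-treated Pirc rats, without overlap (log2 difference -1.32 ± 0.27 (SE), adjusted p = 0.00605). In the same comparison Epcam, Cdh1, Krt8 and Vil1, 4 of 9 measured markers of colon epithelium, were lower in Pirc rats by -0.56 to -0.62. Among all probes 9.47% were higher and 8.76% lower there. The other 5 markers did not pass. Of these, Krt18 and Cdx2 had a higher mean in Pirc rats, and Krt19, Krt20 and Lgals4 a lower one.

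Of 13 measured genes of germinal centres and lymphoid follicles, 4 rose after DSS over both genotypes and none fell, where 10.2% of all probes rose and 6.99% fell (median 0.13, against 0.06 for all probes). Ccl21, a chemokine that draws lymphocytes into lymphoid tissue, rose by 3.44 ± 0.52 (SE), Glycam1, a mucin-like glycoprotein of the vessels through which lymphocytes enter lymph nodes, by 2.04 ± 0.33, Ccr6 by 1.66 ± 0.16 and the lymphotoxin subunit Ltb by 1.21 ± 0.2. None of the 13 passed between the genotypes over both treatments. Ccr6, a chemokine receptor of B cells and other leukocytes, did not overlap between treatments in either genotype, with rises of 1.61 in wild type and 1.71 in Pirc rats. The remaining 9, among them the germinal centre regulator Bcl6, did not pass.

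The octamer bound by the factors that Pou2af1 assists, ATTTGCAT on 1 strand or ATGCAAAT on the other, was searched in RefSeq promoter windows of the GRCr8 assembly, from 250 bases before to 50 bases after the gene start. It was found in 595 of 33469 windows (1.78%). Windows were given for 5 of the 9 genes, Cd79a, Cr2, Jchain, Pigr and Tnfrsf17, and held it in 0 of 5. Among the other lists it was found for Blnk and Vpreb3 (2 of 13 windows of the B cell identity list) and for Ccr6 and Mef2b (2 of 14 of the follicle list). The stretches upstream of the start of Ccr6, which rose after DSS, and of Blnk, which was lower in Pirc rats, are shown because both genes passed a test and hold the octamer, which is in capitals. They lie at chr1:55046152-55046279 and chr1:249770655-249770782, and both are written 5′ to 3′ on the minus strand, the strand of the gene.
Ccr6: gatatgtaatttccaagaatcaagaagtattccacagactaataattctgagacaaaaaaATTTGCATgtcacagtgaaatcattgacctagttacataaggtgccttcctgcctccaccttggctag
Blnk: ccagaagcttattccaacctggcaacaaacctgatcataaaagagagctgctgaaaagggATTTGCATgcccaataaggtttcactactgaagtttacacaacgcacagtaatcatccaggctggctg
A match describes these letters only, and binding was not measured.

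The secretory programme of plasma cells moved unevenly. Of 11 measured genes 2 rose after DSS over both genotypes, Prdm1 and Derl3, 1 fell, Tent5c, where 10.2% of all probes rose and 6.99% fell, and the median was 0.24 against 0.06. Prdm1 (Blimp-1, which directs plasma cell differentiation and is also made by other cells, keratinocytes among them) rose by 2.3 ± 0.38 (SE), and Derl3, part of the machinery that clears misfolded secretory protein, by 1.4 ± 0.18. Tent5c, a poly(A) polymerase of plasma cells, fell by 0.62 on the log2 scale. Xbp1 and Irf4, transcription factors that plasma cells require, did not pass, and Irf4 was well above background on none of the arrays (0 of 16).

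Prdm1 and Tnfrsf17 ranked the DSS-treated Pirc rats differently. In the Pirc rats given DSS it read -3.24, -2.14, -0.81 and -1.47 in rats 12, 16, 20 and 24, whose stratified epithelium sums were 3.86, 5.06, 6.37 and 6.07. The 4 rats had the same order by Prdm1 and by that sum, whereas Tnfrsf17 was highest in rat 12, at -3.11. The DSS-treated wild type rats 14, 18, 22 and 26 did not share that order. Their Prdm1 levels were -2.43, -2.63, -3.24 and -4.59, and their sums were 1.11, 2.08, 5.03 and -2.52. The source of the Prdm1 signal was not tested. Over both treatments 4 genes of this list were higher in Pirc rats, Derl3 (1.17), Fkbp11 (0.68), Sec11c (0.48) and Prdm1 (1.23), and Tent5c was lower (-0.44), where 9.26% of all probes were higher and 8.27% lower. These 5 calls became 3 in 8 of the fits with 1 rat left out, and they ran from 2 to 5 over the other settings. A second, dimmer probe of Derl3 differed by 0.47 between the genotypes (adjusted p = 0.171) and that of Prdm1 by 1.07 (adjusted p = 0.0777).

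Of 17 measured genes that keep, switch and recruit antibody-producing cells, 9 rose after DSS over both genotypes and 1 fell, where 10.2% of all probes rose and 6.99% fell, and the median was 1.23 against 0.06. Among regulators of class switching and survival, Tgfb1 rose by 2.48 ± 0.15 (SE), Il10 by 2.63 ± 0.4 and Cd40 by 1.25 ± 0.15. Il10 read between -8.23 and -7.47 in the untreated Pirc rats, none well above background, and -5.54, -3.16, -2.79 and -2.54 in those given DSS, a rise of at least 12.3-fold (adjusted p = 0.000237). In wild type rats Il10 differed by 0.88 and did not pass (adjusted p = 0.502), and it was well above background on 1 of those 8 arrays. The direct test of the difference between the DSS effects called none of the 17 genes (0), Il10 included. It called 1 gene of the list in 1 of the other settings and in 1 of the fits with 1 rat left out. Tgfb1 is made by many cell types, and its rise passed in wild type rats (2.15) and in Pirc rats (2.82).

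Among homing genes, Madcam1, the vascular address that gut-homing lymphocytes bind, read -5.38, -5.75, -4.74 and -4.47 in untreated Pirc rats and -0.85, -1.81, -0.83 and -1.7 in those given DSS, and in wild type rats it read -5.2, -6.69, -6.39 and -5.46 without DSS and -2.29, -2.4, -3.96 and -4.25 with it. Treated and untreated rats did not overlap in either genotype, with rises of 13.8-fold in Pirc rats (adjusted p = 0.000216) and 6.55-fold in wild type rats (adjusted p = 0.00744). The chains of its ligand also rose over both genotypes, Itgb7 by 1.92 ± 0.18 (SE) and Itga4 by 1.76 ± 0.28. The chemokine receptor Cxcr4 (1.72) and its ligand Cxcl12 (2.28) rose as well.

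Ccr10 and Ccl28, the receptor of IgA plasma cells and the epithelial chemokine that attracts them to the colon, moved in opposite directions. Ccr10 read -7.34, -7.47, -6.82 and -6.86 in untreated Pirc rats and -4.53, -5.42, -5.42 and -5.48 in those given DSS, a rise of 1.91 ± 0.26 (SE) on the log2 scale (adjusted p = 0.000322), with 1 of 4 untreated and 4 of 4 treated arrays well above background. No wild type rat had a Ccr10 signal well above background, and among DSS-treated rats Pirc was at least 2.81-fold higher (adjusted p = 0.000521). For Ccr10 too, the difference between the DSS effects did not pass. Ccl28 read 1.65, 1.85, 2.16 and 1.66 in untreated Pirc rats and 1.11, 0.92, 0.9 and 0.8 in those given DSS, without overlap, and in Pirc rats it fell by 0.9 in log2 units (adjusted p = 0.0373). In wild type rats the difference of Ccl28 was -0.9 as well (adjusted p = 0.0847), and over both genotypes its fall passed (adjusted p = 0.0044). Between the genotypes over both treatments 5 genes of this list were higher in Pirc rats, Ccr10 (1.31), Il10 (1.78), Tgfb1 (0.72), Cd40 (0.67) and Madcam1 (1.39), and none was lower, where 9.26% of all probes were higher and 8.27% lower. Among untreated rats none of the 17 passed (0), whereas 5 were higher in Pirc rats among DSS-treated rats, where 9.47% of all probes were higher. Il10 had means of -7.92 in wild type and -7.88 in Pirc rats without DSS, and of -7.04 and -3.51 with it.

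**Figure D5:**
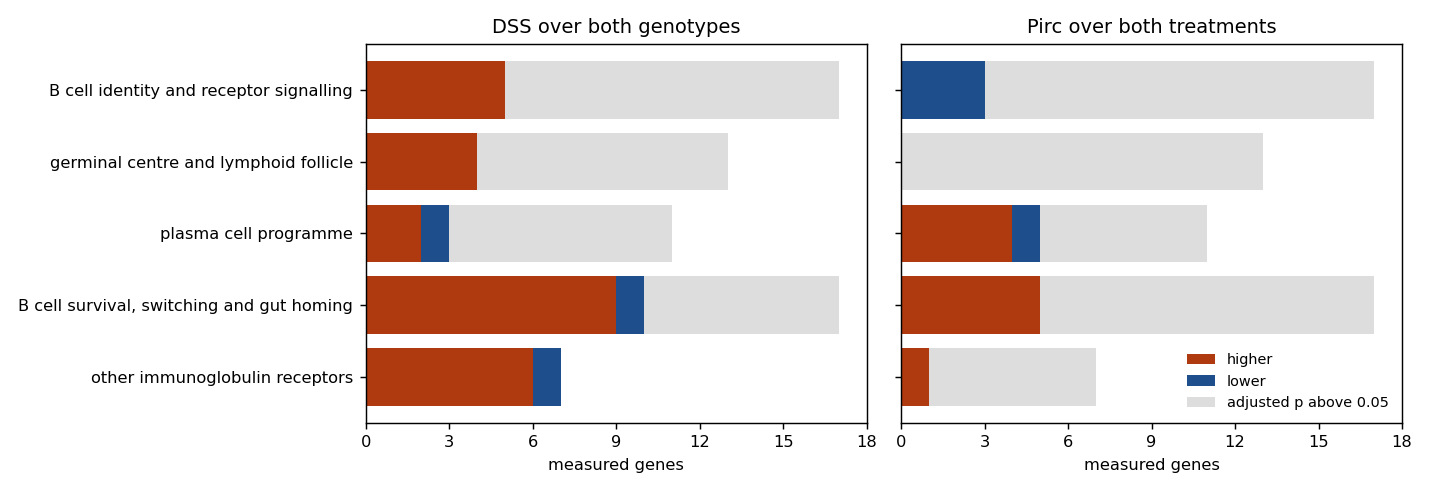
Number of measured genes of 5 lists that were higher (red), lower (blue) or did not pass at an adjusted p of 0.05 (grey), left for DSS against untreated rats over both genotypes and right for Pirc against wild type rats over both treatments. DSS has 5, 4, 2, 9 and 6 genes higher from top to bottom, and the Pirc comparison has 0, 0, 4, 5 and 1.

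Receptors of immunoglobulin other than Pigr all differed after DSS. Of 7 measured, 6 rose over both genotypes and 1 fell, where 10.2% of all probes rose and 6.99% fell. The inhibitory IgG receptor Fcgr2b rose by 2.28 ± 0.24 (SE), the high-affinity IgG receptor Fcgr1a by 1.97 ± 0.28, the IgM receptor Fcmr by 1.88 ± 0.27 and the shared signalling chain Fcer1g by 1.7 ± 0.21. Fcgr3a (1.14) and Fcer1a passed upwards too, with a signal well above background on 6 and 1 of the 16 arrays. Fcgrt, the neonatal Fc receptor that carries IgG across epithelium, fell by 0.47 on the log2 scale (adjusted p = 0.00647), in the same direction as the difference of -0.45 for Pigr, which did not pass (adjusted p = 0.0803). Several of these receptors are carried by macrophages, and 5 of 7 macrophage markers rose in the same comparison. The part of macrophages in the rise of these receptors was not tested.

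Profiles over the 16 rats were also compared with that of Cd79b and that of Mzb1, which stand in for Cd79a and Jchain and were chosen after their values were seen. Nearest to Cd79b were Myl9, Sparcl1, Tpm2, Pou2af1 and Npy, at mean absolute log2 differences of 0.65 to 0.69, where Cd79b deviated from its own mean by 1.19. Myl9 and Tpm2 encode contractile proteins of smooth muscle. Nearest to Mzb1 were Ahrr, Slc16a6, Tlcd4, Acvrl1 and Syt8, at 0.26 to 0.3, where Mzb1 deviated from its own mean by 0.59.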

How the data were processed

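For every array the authors deposited scanner output (Agilent Feature Extraction 10.7.3.1, per the file headers; Partek is named in the submitters' processing notes), in which the processed signal, used here, is an intensity after background subtraction without scaling between arrays. Of 62976 spots per array, 4259 controls were left out. The log2 intensity minus that of the array's 75th percentile was taken as a mean over each probe's spots, outlier-flagged ones excepted. Files hold no gene names. Accessions of 18006 probes matched 15159 genes of a RefSeq table (GRCr8), leaving 12361 probes unnamed. The array design used rn4, so probes are given no coordinates; those of promoter windows are of GRCr8. A gene with several probes is represented by the one with the highest mean over all arrays.

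Tests used limma 3.58.1 under R 4.3.3 (lmFit and eBayes on 16 arrays with 1 mean per group), with Benjamini-Hochberg adjustment over 30367 probes. A gene passed at an adjusted p of 0.05 or less, with no fold cutoff and no filter on dim probes. The 7 comparisons were DSS against untreated (pooled, wild type, Pirc), Pirc against wild type (pooled, untreated, DSS-treated), and the DSS effect in Pirc minus that in wild type rats. Replicates are separate rats, and precision is limited by the number of arrays. The fit was tested on simulated data in which 200 of the 30367 probes were changed in the DSS-treated Pirc rats alone. The difference between the DSS effects recovered 19% of changes of 1 and 54% of changes of 2 on the log2 scale, so many real differences of that size would be missed. Summed levels are log2 of summed linear levels. The 9 genes and all lists were chosen with earlier results of these data known. A few genes of these lists are not reported here and were left out of the counts. From each list, up to 6 genes with the lowest p for DSS and up to 4 for Pirc were named; Il10, Itga4, Cxcl12, Madcam1, Fcgr3a, genes called within 1 genotype, markers and some genes that did not pass were named after their values were seen. Alternatives were quantile scaling, scaling to bright probes, normexp (offset 50) on the median signal, dim probes left out, a common floor, slide or array row as a block, flagged spots kept, only the groups compared, a factor of 2, probes of a gene averaged, and each rat left out. Array row and the omission of rats 25 and 26 were chosen after seeing the data.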

Additional observations from a re-analysis of the deposited data

Results flagged for a closer look

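Among the 24 groups of 4 rats formed by the 6 measured genes, 1 rat stood apart from the other 3 in 2 groups, where chance gives about 1 in 20 groups (1.2 of 24). For Cr2, rat 13 of the untreated wild type rats read -6.94 beside -8.79 to -8.63 in the other 3, with no array well above background. For Pou2af1, rat 25 of the untreated wild type rats read -4.23 beside -5.04 to -4.91, and the same rat had a summed smooth muscle level of 2.8.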

How the results depend on the processing

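Dim signal limits these results, since only Pou2af1 and Pigr were well above background on all arrays. With levels below -6.22 raised to a common floor, 2 instead of 4 genes passed after DSS over both genotypes and 2 instead of 4 in Pirc rats, since Cd79b (0.57 and 0.74) and Mzb1 (0.41 and 0.79) no longer passed. After DSS in wild type rats 1 gene instead of 0, Pou2af1, passed with scaling to bright probes, with dim probes left out or without rats 25 and 26. Between DSS-treated Pirc and wild type rats 1 instead of 3 passed when only those groups were fitted. Over both treatments Pirc gave 0 instead of 1 with normexp, and 2 with dim probes left out or without rats 25 and 26. With 1 rat left out at a time, the counts ran from 0 to 1 for DSS in wild type rats (1 without rat 12, 22 or 25), from 1 to 3 for Pirc in DSS-treated rats (1 without rat 12 or 22), and from 1 to 2 for Pirc over both treatments (2 without rat 20, 25 or 26). Cd79b after DSS in Pirc rats lost its call without rat 11, 12, 19, 20 or 23 (adjusted p up to 0.0792) and with normexp (0.69, adjusted p = 0.0632). Mzb1 between DSS-treated genotypes was 0.18 with normexp (adjusted p = 0.525). Over both genotypes the 5 calls after DSS on the B cell identity list became 2 with normexp, dim probes left out or the floor, and 3 with a factor of 2 or without rats 25 and 26, and the 3 calls on the plasma cell list became 5 without rat 24. The difference between the DSS effects gave 1 instead of 0 calls on the immunoglobulin list (Igll1) with normexp, with the floor or without rat 19. Over both treatments Pirc gave 1 instead of 5 calls on the survival and homing list with normexp. The causes were not tested.

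Some differences that did not pass changed sign. With normexp, under which the median of all probes was -0.18 for Pirc over both treatments, Cd79b read -0.15 between DSS-treated genotypes, Mzb1 -0.22, Pou2af1 -0.11 and Tnfrsf17 -0.12 between untreated genotypes, Mzb1 -0.02 over both treatments, and Cr2 0.17 for the difference between the DSS effects (0.02 with scaling to bright probes). Without rats 25 and 26 Cd79b read 0.37 for Pirc over both treatments, and Cr2 -0.18 for DSS in wild type rats and 0.59 for the difference. With 1 rat left out, Cd79b ran from -0.06 to 1.14 between DSS-treated genotypes and from -0.54 to 0.06 for Pirc over both treatments (0 without rat 25), Cr2 from -0.07 to 0.86 for DSS in wild type rats and from -0.45 to 0.47 for the difference between the DSS effects, Pigr from -0.23 to 0.19 between DSS-treated genotypes and Pou2af1 from -0.04 to 0.3 in untreated rats. No paired analysis was possible because the rat numbers in the labels are not shared between groups.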
